A study of Mus musculus with 8 samples.

Results

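The glucuronosyltransferase (UGT), sulfotransferase (SULT) and glutathione transferase (GST) genes of the mouse were followed across brain, heart, kidney and liver. Members were taken by gene symbol, as the numbered genes of the Ugt1 to Ugt3, Sult1 to Sult6 and Gsta, Gstk, Gstm, Gsto, Gstp, Gstt and Gstz classes, which gave 63 of the 27179 genes in the table (22 GST, 21 SULT and 20 UGT genes). Each of the 4 organs gave 1 library from formalin-fixed, paraffin-embedded tissue (FFPE, in 10% formalin) and 1 from flash-frozen tissue, 8 libraries of total RNA in all. No treatment or genotype other than the way of keeping the tissue is labelled, and strain, age, sex and the number of animals are not stated by the labels. Since each group is 1 library, a difference between FFPE and frozen tissue within 1 organ has no replicate.

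These enzymes carry out conjugation, the step of detoxification in which a polar group is attached to a drug, hormone or metabolite so that it can leave the cell and be excreted. UGTs, in the endoplasmic reticulum, transfer glucuronic acid from UDP-glucuronic acid. SULTs, in the cytosol, transfer a sulfonate group from the donor PAPS, and most GSTs attach glutathione to reactive, electron-poor compounds. The liver is the organ best known for all these reactions, with the kidney tubule as another site, and conjugates leave through transporters into bile and urine.

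Levels are given as CPM, reads per 1e+06 reads of the effective library size that the authors' normalization implies, and differences as log2 units with 0.5 reads added to each count. The libraries held 10180972 to 20526813 reads. Markers of hepatocytes, proximal tubule, neurons and cardiomyocytes each summed highest in the organ where they belong. Hepatocyte markers summed to 39953 CPM in FFPE liver and 43389 CPM in frozen liver, and proximal tubule markers to 4188 CPM in FFPE kidney and 7117 CPM in frozen kidney. Neuron markers summed to 1400 CPM in FFPE brain and 881 CPM in frozen brain, and cardiomyocyte markers to 20535 CPM in FFPE heart and 23302 CPM in frozen heart. In bulk tissue, fewer cells of a type and less RNA per cell cannot be told apart.

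The libraries of 1 organ differed in sex-linked transcripts. Xist, the RNA of the inactive X chromosome in females, had 24213 reads in FFPE liver and 3 in frozen liver, 15389 reads in FFPE kidney and 1 in frozen kidney, 4652 reads in FFPE heart and 7 in frozen heart, and 9954 reads in FFPE brain and 13170 in frozen brain. Ddx3y, on the Y chromosome, had 308 reads in FFPE liver and 639 in frozen liver, 450 in FFPE kidney and 525 in frozen kidney, 233 in FFPE heart and 634 in frozen heart, and 224 in FFPE brain and 0 in frozen brain. All 4 FFPE libraries thus held reads of both kinds, frozen brain held Xist with almost no Y-linked reads, and the other 3 frozen libraries held Y-linked reads with almost no Xist. Preservation and this difference cannot be told apart within an organ. Among the frozen libraries it also separates brain from the other 3 organs, so there it cannot be told apart from organ. Several of the genes below are known to differ between male and female mouse liver.

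**Figure D1:**
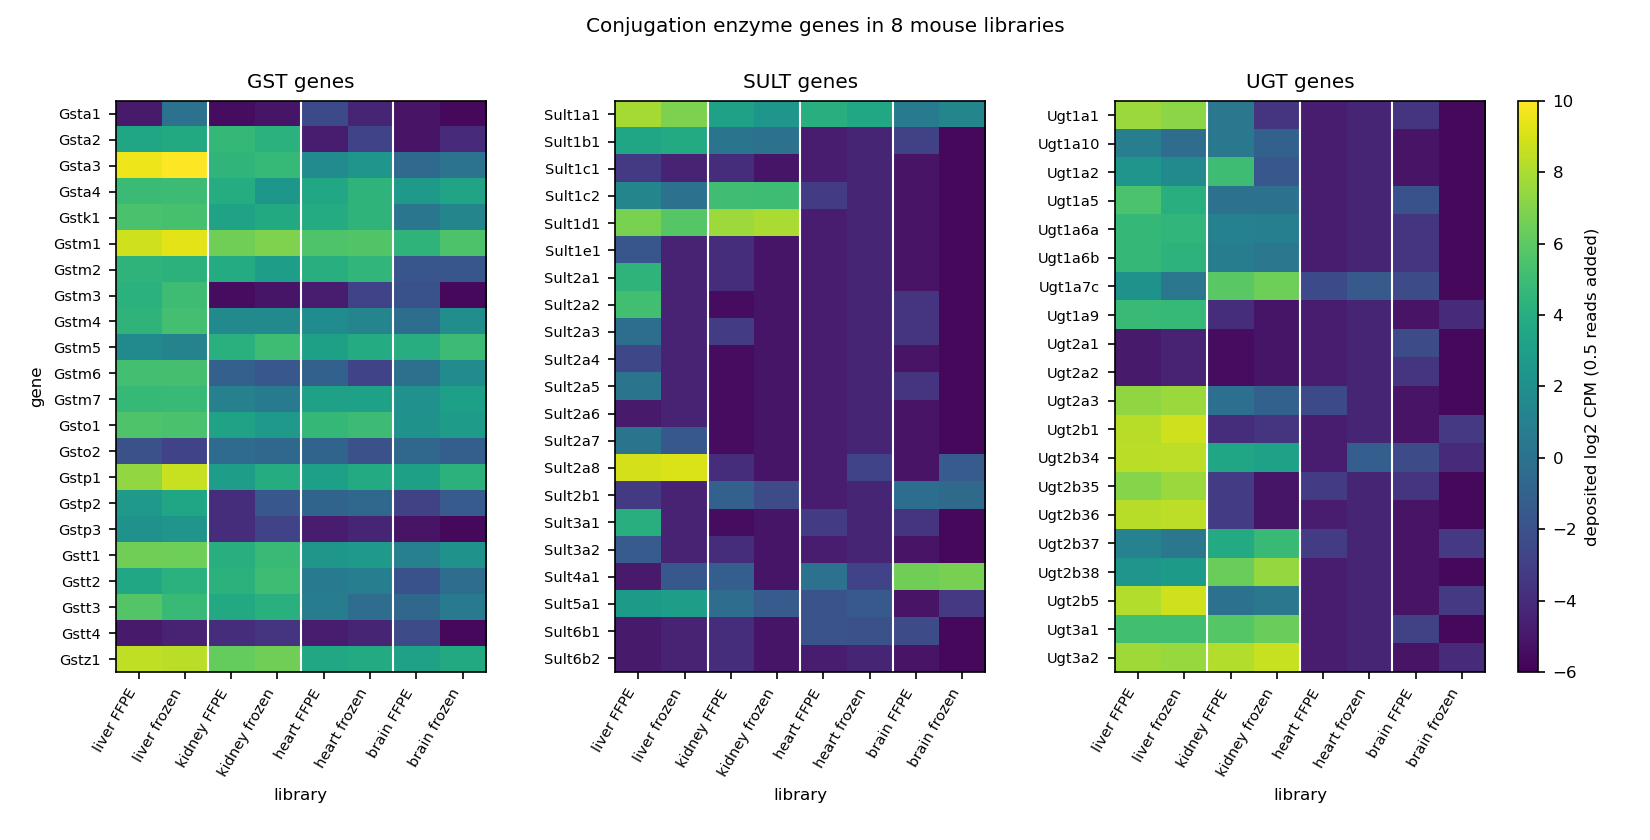
Deposited log2 CPM of the 63 genes in the 8 libraries, with GST, SULT and UGT genes in separate panels, libraries along the x axis (FFPE left of frozen within each organ) and genes down the y axis. Liver columns are the brightest in all 3 panels, kidney columns share part of the UGT pattern, and UGT genes are dark in heart and brain, where their reads summed to at most 1.12 CPM.

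The 3 families differed in how widely they were transcribed. Of the 63 genes, 10 were above 1 CPM in all 8 libraries, and 9 of these were GSTs (Gsta4, Gstk1, Gstm1, Gstm5, Gstm7, Gsto1, Gstp1, Gstt1 and Gstz1), with Sult1a1 as the other. A further 27 genes above 1 CPM in at least 2 libraries were above it only in liver or kidney libraries. UGT genes were nearly silent outside those organs. The 20 UGT genes together had 20 reads in FFPE brain and 9 in frozen brain, and 6 reads in FFPE heart and 7 in frozen heart, against 30666 reads in FFPE liver, 25676 in frozen liver, 12124 in FFPE kidney and 13584 in frozen kidney. GST reads summed to 2189 CPM in FFPE liver and 2811 CPM in frozen liver, and to between 77.2 and 419 CPM in the other 6 libraries, with the lowest sum in FFPE brain.

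Of the 63 genes, 44 exceeded 1 CPM in at least 2 libraries and were tested (19 GST, 7 SULT and 18 UGT genes). The 19 others were 6 genes above 1 CPM in 1 library (Gsta1, Sult2a1, Sult2a2, Sult2a5, Sult2a7 and Sult3a1) and 13 above it in none (Gsto2, Gstt4, Sult1c1, Sult1e1, Sult2a3, Sult2a4, Sult2a6, Sult2b1, Sult3a2, Sult6b1, Sult6b2, Ugt2a1 and Ugt2a2). Sult2a6 had no read in any library. Sult1e1, the oestrogen sulfotransferase, had 4 reads in FFPE liver, 1 in FFPE kidney and none in the other 6 libraries. Sult2b1, which sulfates cholesterol in skin, had 15 reads in FFPE brain and 18 in frozen brain, its highest counts.

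Compared with the mean of the other 3 organs, 41 of the 44 tested genes were higher in liver and 2 were lower at an adjusted p under 0.05 (limma with Benjamini-Hochberg adjustment over 15819 genes). Of all tested genes 27.3% were called higher and 35.2% lower in that comparison. The higher ones were 18 of 19 GSTs, 6 of 7 SULTs and 17 of 18 UGTs, and the lower ones were Gstm5 and Sult4a1. The brain libraries carried Sult4a1 through the filter, so its low place in liver was set by that. Ugt1a7c was not called (1.22 ± 0.79 log2 units, SE, adjusted p = 0.21). Of the 41, 10 entered the test only through the 2 liver libraries and so had to be higher there (Gstm3, Gstp2, Gstp3, Sult2a8, Sult5a1, Ugt1a9, Ugt2a3, Ugt2b1, Ugt2b35 and Ugt2b36), and their differences are given without a p. Of the other 34 tested genes, 31 were higher and 2 lower in liver. Among the 31, Gstm6, Sult1b1, Ugt1a1, Ugt1a2, Ugt1a5 and Ugt1a10 also needed a liver library to enter the test. Each was above 1 CPM in only 1 library outside liver, so their liver calls are not free of the filter. The 27 genes above 1 CPM only in liver and kidney libraries, the 10 included, were low in brain and heart by the filter. Ugt2b5 and Ugt2b34 are among the 27, so their liver p-values given below carry this limit. All liver p-values rest on 2 libraries per organ. The count of 2 lower genes was 1 without frozen brain, FFPE heart or FFPE liver.

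The 4 UGT genes with the highest CPM in both liver libraries were all of the Ugt2b group, whose enzymes glucuronidate steroids and bile acids. Ugt2b34 had 319.8 CPM in FFPE liver and 342 CPM in frozen liver, against 11.01 CPM in FFPE kidney, 8.72 CPM in frozen kidney and at most 0.39 CPM in brain and heart libraries. Ugt2b36 had 316 CPM in FFPE liver and 335 CPM in frozen liver, with 2 reads in FFPE kidney and none in the other 5 libraries. For both genes each liver library was above every library of the other organs, which for Ugt2b36 was fixed by the filter. The share of all genes with such a gap was not computed. Ugt2b1 had 310.3 CPM in FFPE liver and 461 CPM in frozen liver, and at most 0.0793 CPM elsewhere. Ugt2b5 had 287 CPM in FFPE liver and 469 CPM in frozen liver, and 0.997 CPM in FFPE kidney and 1.23 CPM in frozen kidney. The differences from the other organs were 13.03 ± 0.63 log2 units for Ugt2b36, 12.72 ± 0.55 for Ugt2b1, 11.39 ± 0.48 for Ugt2b5 (adjusted p = 5.68e-07) and 9.33 ± 0.83 for Ugt2b34 (adjusted p = 2.27e-05, limma, SE). No p is given for Ugt2b36 and Ugt2b1, which passed the filter through the liver libraries alone. For genes with a few reads or none outside the liver, the size of such a difference depends on the 0.5 reads added to each count. Ugt2b35 (137 CPM in FFPE liver and 193 CPM in frozen liver) and Ugt2a3 (161 CPM in FFPE liver and 192 CPM in frozen liver) were also below 1 CPM in every other organ.

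Of the SULTs, Sult2a8 stood out in liver. Its product sulfates bile acids in the mouse. It had 506 CPM in FFPE liver and 547 CPM in frozen liver and at most 9 reads in any other library, and it differed from the other organs by 12.88 ± 0.88 log2 units (SE). No p is given, since it passed the filter through the liver libraries alone. Sult1a1, the phenol sulfotransferase, had 232 CPM in FFPE liver and 116 CPM in frozen liver. It was the SULT found in every organ, with 16.5 CPM in FFPE heart and 11.5 CPM in frozen heart, 8.97 CPM in FFPE kidney and 5.38 CPM in frozen kidney, and 1.56 CPM in FFPE brain and 2.50 CPM in frozen brain. Its liver difference was 4.83 ± 0.30 log2 units (adjusted p = 2.7e-06), and it was lower in kidney (difference -1.25 ± 0.30, adjusted p = 0.0099).

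The GST with the most liver reads was Gsta3, an alpha-class enzyme that protects mice from aflatoxin by conjugating its epoxide. It had 780.5 CPM in FFPE liver and 982 CPM in frozen liver, 22.1 CPM in FFPE kidney and 26.5 CPM in frozen kidney, 3.18 CPM in FFPE heart and 4.97 CPM in frozen heart, and 0.67 CPM in FFPE brain and 1.07 CPM in frozen brain. The order liver, kidney, heart, brain held in both preparations, and the liver difference was 7.64 ± 0.16 log2 units (adjusted p = 6.25e-08). Gstm1, the main mu-class enzyme, had 459 CPM in FFPE liver and 661 CPM in frozen liver and stayed at 21.2 CPM or more in all libraries (liver difference 3.34 ± 0.19, adjusted p = 1.68e-06). Per kilobase of exon not shared with another gene, Gstm1 had the highest level of the 63 genes in liver, 312 CPM per kb in FFPE liver and 449 CPM per kb in frozen liver, against 179.7 CPM per kb for Gsta3 in FFPE liver and 226 CPM per kb in frozen liver. The length used is that of all annotated exons merged, 4344 bases for Gsta3 and 1473 for Gstm1. The order of these 2 genes depends on it and does not show which transcript is more abundant. Gstz1, also called maleylacetoacetate isomerase, works in the breakdown of tyrosine. It had 350.0 CPM in FFPE liver and 327 CPM in frozen liver, and 73.7 CPM in FFPE kidney and 92.4 CPM in frozen kidney (liver difference 3.90 ± 0.15, adjusted p = 4.52e-07).

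The upstream sequence of Gsta3 is shown because it holds the core of the antioxidant response element, the site of the stress regulator NRF2. Sequences here come from the RefSeq promoter table, build GRCm38.p6 (the assembly of mm10), run 5′ to 3′ on the gene's strand from 250 bases before to 50 bases after the annotated start, and are in lower case. The Gsta3 window is chr1:21240335-21240634, plus strand, and the match TGACATTGC begins at position -121 from the start and is in capitals.
Gsta3: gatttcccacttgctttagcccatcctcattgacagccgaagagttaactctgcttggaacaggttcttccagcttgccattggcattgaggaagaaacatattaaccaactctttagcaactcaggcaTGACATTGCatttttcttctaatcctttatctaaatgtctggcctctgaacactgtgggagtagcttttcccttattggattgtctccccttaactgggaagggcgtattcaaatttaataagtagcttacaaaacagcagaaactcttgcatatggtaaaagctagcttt
The core, TGACNNNGC on either strand, was found in 3 of 66 windows of 55 member genes with an entry (4.55%: Gsta3, Gstm5 and Gstm7) and in 12.4% of all 32851 windows.

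Kidney was the second organ of this gene set. Compared with the other 3 organs, 20 of the 44 tested genes were higher in kidney and 13 were lower, while 20.3% of all tested genes were called higher and 19.9% lower. The 10 genes that entered through the liver libraries alone gave 7 of the 13 lower ones and none of the higher. The 27 genes above 1 CPM only in liver and kidney libraries, low in brain and heart by the filter, gave 13 of the 20 higher ones. Of the other 17 tested genes 7 were higher and 6 lower. Ugt3a2, Ugt3a1, Sult1d1, Sult1c2, Ugt2b38, Ugt1a7c and Ugt1a2 are among the 27, so their kidney p-values given below carry this limit. The higher ones were 8 GSTs, 2 SULTs and 10 UGTs, and the lower ones 6 GSTs, 3 SULTs and 4 UGTs. Sult4a1, among these 3 SULTs, was carried through the filter by the brain libraries. Without FFPE kidney 12 genes were higher in kidney, and without frozen kidney 6 were lower. With log2(CPM + 5) 12 were higher and 23 lower, against 2940 and 4110 of all 15819 tested genes. Ugt3a2 and Ugt3a1, neighbours on chromosome 15 whose human counterparts use sugar donors other than UDP-glucuronic acid, were high in both kidney and liver. Ugt3a2 had 286 CPM in FFPE kidney and 406 CPM in frozen kidney, and 211 CPM in FFPE liver and 187 CPM in frozen liver (kidney difference 8.92 ± 0.33, adjusted p = 2.98e-06). Ugt3a1 had 54.3 CPM in FFPE kidney and 81.5 CPM in frozen kidney, and 36.2 CPM in FFPE liver and 36.4 CPM in frozen liver (kidney difference 7.26 ± 0.66, adjusted p = 7.06e-05). Neither gene was called between liver and kidney, with liver minus kidney differences of -0.78 ± 0.40 for Ugt3a2 (adjusted p = 0.16) and -0.87 ± 0.81 for Ugt3a1 (adjusted p = 0.43), which does not show that their levels are alike.

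Sult1d1, which sulfates catecholamines and other phenols, was the main kidney SULT. It had 202 CPM in FFPE kidney and 249 CPM in frozen kidney, 109 CPM in FFPE liver and 54.1 CPM in frozen liver, and no read in the 4 heart and brain libraries. Its kidney difference was 9.04 ± 0.40 log2 units (adjusted p = 5.15e-06). Sult1c2 had 34.3 CPM in FFPE kidney and 32.2 CPM in frozen kidney, against 2.48 CPM in FFPE liver and 0.96 CPM in frozen liver (kidney difference 7.88 ± 0.52, adjusted p = 1.77e-05). Ugt2b38 had 81.2 CPM in FFPE kidney and 174 CPM in frozen kidney, against 5.31 CPM in FFPE liver and 6.43 CPM in frozen liver (kidney difference 9.36 ± 0.48, adjusted p = 6.73e-06). Of the more widely transcribed GSTs, Gstz1 was higher in kidney (1.19 ± 0.15, adjusted p = 0.000448), and Gstm1, with 91.6 CPM in FFPE kidney and 118 CPM in frozen kidney, was not called (0.13 ± 0.19, adjusted p = 0.61).

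Set directly against kidney, liver was higher for 29 of the 44 tested genes and lower for 6, against 18% and 23.2% of all tested genes. The higher ones were 14 GSTs, 4 SULTs and 11 UGTs. They include the 10 genes that entered through the liver libraries alone, and of the other 34 tested genes 19 were higher and 6 lower. Of the 19, Gstm6, Sult1b1, Ugt1a1 and Ugt1a5 also needed a liver library to enter the test. The 5 with the largest differences were Sult2a8 (13.53 ± 1.08), Ugt2b36 (12.46 ± 0.77), Ugt2b1 (12.26 ± 0.67), Ugt2b35 (11.47 ± 0.80) and Gstm3 (9.90 ± 1.24). All 5 are among those 10, so that being higher in liver was fixed by the filter and no p is given. Each of the 5 had at most 2 reads in either kidney library. Gstm3, a mu-class gene, had 18.6 CPM in FFPE liver and 32.4 CPM in frozen liver. The 6 lower in liver were Ugt1a7c (-4.91 ± 0.97, adjusted p = 0.00363), Sult1c2 (-4.38 ± 0.64, adjusted p = 0.000719), Ugt2b38 (-4.34 ± 0.59, adjusted p = 0.000486), Ugt2b37 (-3.55 ± 0.84, adjusted p = 0.00916), Gstm5 (-3.19 ± 0.35, adjusted p = 0.000141) and Sult1d1 (-1.55 ± 0.49, adjusted p = 0.034). Without frozen kidney 3 genes were lower in liver, and the differences of Ugt1a7c (adjusted p = 0.0558) and Ugt2b37 (adjusted p = 0.0970) were then not called. With limma's voom 10 genes were lower, against 3567 of all 15819 tested genes.

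**Figure D2:**
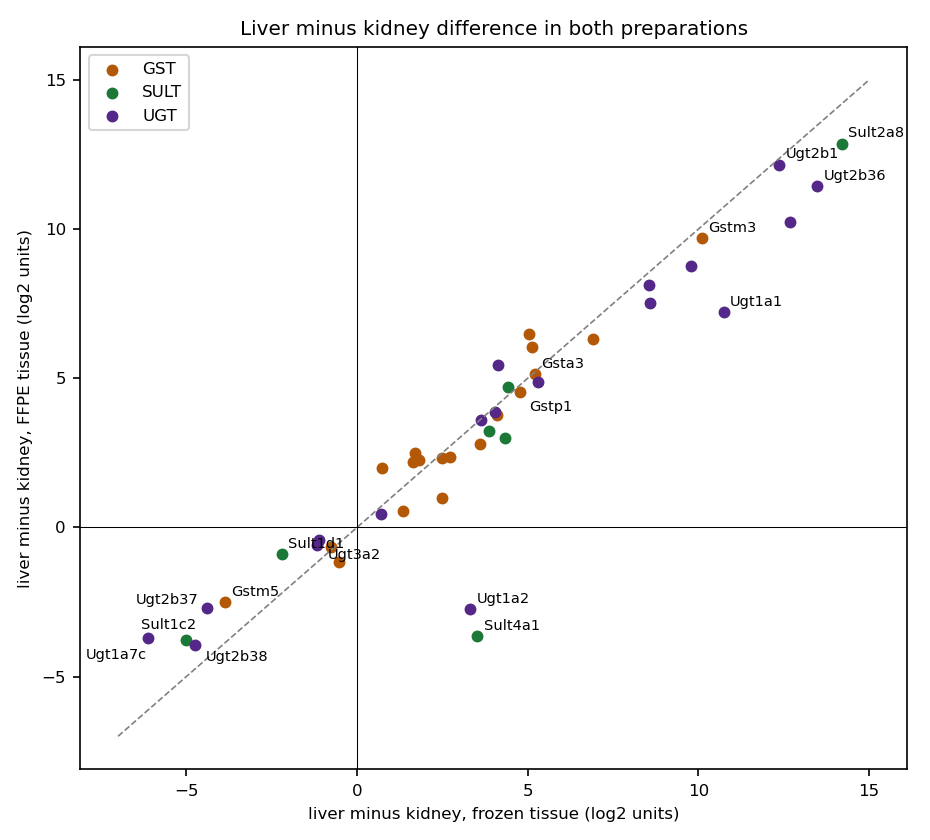
Liver minus kidney difference of the 44 tested genes in FFPE tissue (y axis) against frozen tissue (x axis), both in log2 units, coloured by family, with the dashed line marking equal values. Most points lie near the line, and 2 genes, Ugt1a2 and Sult4a1, lie on opposite sides of 0 in the 2 preparations.

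The liver and kidney patterns were sorted by all 3 calls. There were 12 genes higher in liver, lower in kidney and higher in liver than kidney, among them Gstp1, Gsto1, Sult1a1, Sult2a8, Ugt1a9 and Ugt2b1, and 7 of the 12 had entered through the liver libraries alone. Another 11 were higher in liver and not called in kidney. For 18 genes both liver and kidney were called higher, each against the mean of its other 3 organs. Of these, 6 were higher in liver than kidney (Gsta3, Gstt1, Gstz1, Ugt1a6a, Ugt1a6b and Ugt2b34) and 4 were lower (Sult1c2, Sult1d1, Ugt2b37 and Ugt2b38). The other 8 were not called between these organs. Such a call does not place kidney above every other organ. Gstm2, among the 8, had 14.0 CPM in FFPE kidney and 7.72 CPM in frozen kidney, below heart in both preparations. The organ of the highest level was the same in FFPE and frozen tissue for 41 of the 43 genes above 1 CPM in that organ in both. Among the FFPE libraries it was liver for 31 genes, kidney for 11 and brain for 1, and among the frozen libraries liver for 31, kidney for 10, brain for 1 and heart for 1. The exceptions were Gstm2 (20.7 CPM in FFPE liver and 16.7 CPM in FFPE heart, but 19.6 CPM in frozen liver and 23.1 CPM in frozen heart) and Ugt1a2.

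Neighbouring genes of 1 cluster often had opposite organs. On chromosome 5, 10 Ugt2 genes and 3 Sult1 genes lie in a row, from Ugt2b34 (chr5:86889767-86906937) to Sult1e1 (chr5:87575969-87591594, GENCODE M21 annotation, both minus strand). Ugt2b5 and Ugt2b37 stand next to each other in that row. Ugt2b5 had 287 CPM in FFPE liver and 469 CPM in frozen liver against 0.997 CPM in FFPE kidney and 1.23 CPM in frozen kidney, while Ugt2b37 had 2.14 CPM in FFPE liver and 1.25 CPM in frozen liver against 14.0 CPM in FFPE kidney and 27.5 CPM in frozen kidney. Ugt2a3, a liver gene, likewise lies between Ugt2b37 and Ugt2b38, both higher in kidney. Ugt2b5 and Ugt2b38 share 34.8% of the 50-base stretches of Ugt2b5, so reads could pass between those genes depending on how multiple matches were counted, which no source used here states. Ugt2a1 and Ugt2a2, with 98.8% and 94.5% of their exonic bases shared with each other or with another annotated gene, had 3 reads and 1 read in FFPE brain and none elsewhere.

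**Figure D3:**
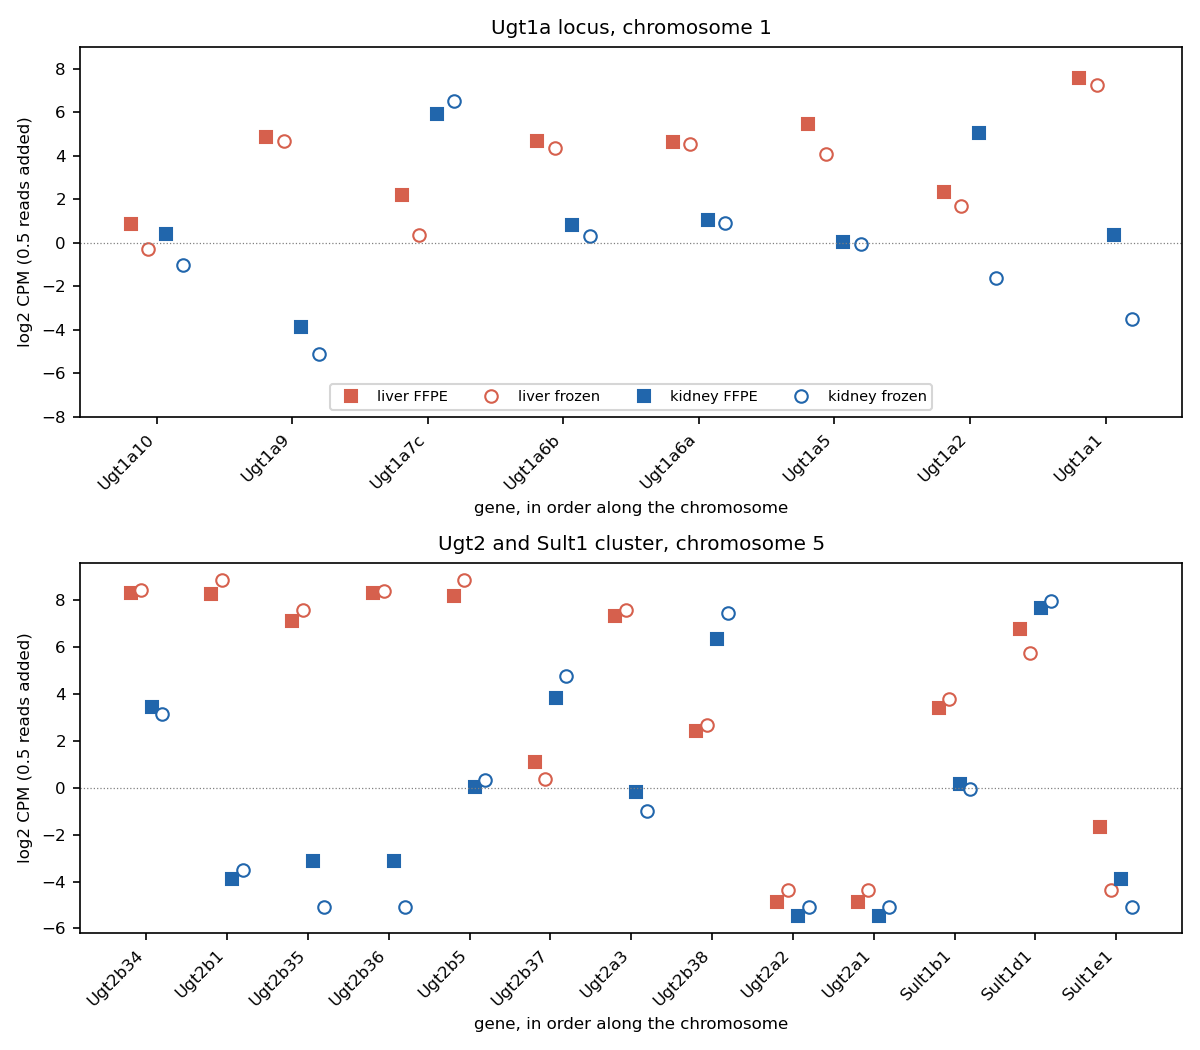
Deposited log2 CPM of the genes of the Ugt1a locus (top) and of the Ugt2 and Sult1 cluster (bottom) in order along the chromosome, for FFPE liver, frozen liver, FFPE kidney and frozen kidney. Liver squares and circles lie far above kidney for most genes, the order is turned round at Ugt1a7c, Ugt2b37, Ugt2b38 and Sult1d1, and Ugt1a2 and Ugt1a1 show a wide gap between FFPE kidney and frozen kidney.

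The Ugt1a locus, chr1:88055388-88220002 on the plus strand, holds 8 members that each have their own first exon and promoter and share the remaining exons. From 50.3% to 60.6% of their exonic bases are shared with another Ugt1a gene, and how reads in those bases were counted is stated nowhere in the labels, so the values cannot be assigned to the first exons alone. Ugt1a1, the bilirubin-conjugating enzyme, took the largest part of the locus in liver. It held 58.6% of 4737 locus reads in FFPE liver (exact 95% binomial interval 57.2 to 60.03%, counting error only) and 62.1% of 2519 in frozen liver (60.2 to 64.0%). Ugt1a7c took that place in kidney, with 59.8% of 2230 locus reads in FFPE kidney (57.8 to 61.9%) and 94.9% of 1625 in frozen kidney (93.7 to 95.9%). In CPM, Ugt1a1 had 191 CPM in FFPE liver and 150.2 CPM in frozen liver, and 1.27 CPM in FFPE kidney and 0.0585 CPM in frozen kidney (liver minus kidney 8.98 ± 0.99). No p is given for Ugt1a1, which was above 1 CPM outside liver in FFPE kidney alone and so needed a liver library to be tested. Ugt1a7c had 4.62 CPM in FFPE liver and 1.25 CPM in frozen liver, and 60.5 CPM in FFPE kidney and 90.2 CPM in frozen kidney (kidney minus the other organs 7.77 ± 0.79, adjusted p = 0.000126).

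Ugt1a2 took most of the other locus reads in FFPE kidney. It had 733 reads in FFPE kidney, 32.9% of the locus (30.9 to 34.9%), and 5 reads in frozen kidney, 0.308% (0.1 to 0.717%). In CPM that is 33.2 CPM in FFPE kidney and 0.293 CPM in frozen kidney, a ratio of 114 (48.4 to 351, counting error only). Its liver levels were 4.96 CPM in FFPE liver and 3.17 CPM in frozen liver, so its highest organ was kidney in FFPE tissue and liver in frozen tissue. It was higher in kidney than in the other organs (4.36 ± 1.24, adjusted p = 0.023) with these unequal libraries averaged. Ugt1a1 also had more reads in FFPE kidney, 28 against 1 in frozen kidney, and Abcc3, a transporter of glucuronides, had 468 reads in FFPE kidney and 24 in frozen kidney. Proximal tubule markers were lower in FFPE kidney, as given above, and Xist was present there, and the part of these differences in the Ugt1a2 value was not tested.

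Promoter windows of 3 Ugt1a genes are printed because each first exon has its own upstream sequence and these 3 held the largest shares of the locus in liver or kidney. The windows are chr1:88211709-88212008 for Ugt1a1, chr1:88094751-88095050 for Ugt1a7c and chr1:88200361-88200660 for Ugt1a2, all plus strand, from the same RefSeq table. Capitals mark the 50 bases from the annotated start on.
Ugt1a1: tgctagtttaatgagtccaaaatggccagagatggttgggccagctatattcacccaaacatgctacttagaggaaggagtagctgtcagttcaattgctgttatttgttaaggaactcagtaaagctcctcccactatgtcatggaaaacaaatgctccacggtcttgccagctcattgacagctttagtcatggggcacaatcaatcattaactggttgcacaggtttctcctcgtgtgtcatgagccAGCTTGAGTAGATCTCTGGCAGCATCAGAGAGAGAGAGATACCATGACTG
Ugt1a7c: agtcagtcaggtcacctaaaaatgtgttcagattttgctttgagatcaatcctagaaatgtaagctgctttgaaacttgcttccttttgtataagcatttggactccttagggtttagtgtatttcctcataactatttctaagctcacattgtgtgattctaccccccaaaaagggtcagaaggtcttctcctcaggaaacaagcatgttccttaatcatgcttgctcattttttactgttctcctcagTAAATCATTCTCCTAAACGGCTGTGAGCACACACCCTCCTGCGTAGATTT
Ugt1a2: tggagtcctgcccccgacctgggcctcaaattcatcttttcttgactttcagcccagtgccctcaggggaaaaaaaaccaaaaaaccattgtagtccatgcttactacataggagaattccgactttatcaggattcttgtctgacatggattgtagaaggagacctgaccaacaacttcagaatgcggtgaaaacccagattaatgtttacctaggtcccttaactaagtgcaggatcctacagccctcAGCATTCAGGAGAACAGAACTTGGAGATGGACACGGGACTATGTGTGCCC
None of these 3 windows holds TATAAA on either strand, which was found in 22.7% of member windows and 13.6% of all windows. The HNF4 letters CAAAGTCCA, on either strand, were in 1.52% of member windows (Sult1b1) and 0.475% of all. A match is a description of the letters and shows no binding. In the RNA, Hnf4a, which encodes a nuclear receptor of liver and kidney, had 507 CPM in FFPE liver, 442 CPM in frozen liver, 334 CPM in FFPE kidney and 401 CPM in frozen kidney. It had at most 8 reads in any brain or heart library.

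In brain, 39 of the 44 tested genes were lower than in the other organs and 2 were higher, against 31.6% and 34.7% of all tested genes. The 39 were 18 UGTs, 15 GSTs and 6 SULTs. Of the tested genes 27, all 18 UGTs among them, had entered the test only through liver and kidney libraries, so that a low place in brain and heart was fixed by the filter. They gave 26 of the 39, and of the other 17 tested genes 13 were lower and 2 higher in brain. Sult4a1, a sulfotransferase of neurons with no well-defined substrate, had 92.8 CPM in FFPE brain and 104 CPM in frozen brain and at most 0.986 CPM in any other library (difference 9.20 ± 1.20, given without a p since the brain libraries carried it through the filter). It made up 95.8% of the SULT signal per kilobase in FFPE brain and 95.5% in frozen brain. Gstm5, a mu-class GST, was the other gene higher in brain (1.32 ± 0.28, adjusted p = 0.00324). It had 16.0 CPM in FFPE brain and 30.7 CPM in frozen brain, 17.8 CPM in FFPE kidney and 33.2 CPM in frozen kidney, 8.42 CPM in FFPE heart and 14.0 CPM in frozen heart, and 3.10 CPM in FFPE liver and 2.21 CPM in frozen liver. It was called higher in kidney too (1.495 ± 0.28, adjusted p = 0.0034), and its brain call was lost without frozen brain (adjusted p = 0.0828). Gstm1 (21.2 CPM in FFPE brain and 46.6 CPM in frozen brain), Gstp1 (8.66 CPM in FFPE brain and 19.7 CPM in frozen brain) and Gstz1 (8.77 CPM in FFPE brain and 13.3 CPM in frozen brain) were also among the 5 most abundant of the set by mean log2 level. All 3 were lower in brain than in the mean of the other 3 organs. The differences were -2.17 ± 0.19 for Gstm1 (adjusted p = 1.58e-05), -1.24 ± 0.15 for Gstp1 (adjusted p = 0.000105) and -2.72 ± 0.15 for Gstz1 (adjusted p = 2.3e-06). Gstp1 in brain was above heart (8.11 CPM in FFPE and 13.6 CPM in frozen tissue) and kidney (7.48 CPM in FFPE and 14.7 CPM in frozen tissue). Its lower place in brain was thus against liver (173 CPM in FFPE and 405 CPM in frozen tissue) alone. The Gstp1 brain call was lost without the authors' scaling factors (adjusted p = 0.253).

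In heart, 32 tested genes were lower than in the other organs and 3 were higher, against 28.7% and 21.5% of all tested genes. The 27 genes that entered only through liver and kidney libraries gave 24 of the 32, and of the other 17 tested genes 8 were lower. The 3 higher ones were GSTs. Gstm2 had 16.7 CPM in FFPE heart and 23.1 CPM in frozen heart and was higher by 2.30 ± 0.28 log2 units (adjusted p = 0.000243), although liver (20.7 CPM in FFPE liver and 19.6 CPM in frozen liver) was at a like level. Brain had 0.279 CPM in FFPE and 0.278 CPM in frozen tissue. Gsto1, an omega-class enzyme that reduces dehydroascorbate, had 24.9 CPM in FFPE heart and 31.3 CPM in frozen heart (1.15 ± 0.23, adjusted p = 0.0037). Gstk1, the kappa-class enzyme of mitochondria and peroxisomes, had 14.2 CPM in FFPE heart and 21.2 CPM in frozen heart (0.92 ± 0.22, adjusted p = 0.00916). For Gsto1 and Gstk1 liver was above heart in both preparations. Gsto1 had 49.0 CPM in FFPE liver and 41.9 CPM in frozen liver, and Gstk1 had 42.6 CPM in FFPE liver and 40.7 CPM in frozen liver. Without frozen heart the count was 1, with adjusted p = 0.0633 for Gsto1 and 0.0813 for Gstk1. Without the authors' scaling factors it was 1 as well, against 1649 of all 15819 tested genes, with adjusted p = 0.342 for Gsto1 and 0.824 for Gstk1. Gsta4, which conjugates the lipid peroxidation product 4-hydroxynonenal, had 12.3 CPM in FFPE heart and 20.8 CPM in frozen heart and was not called (0.30 ± 0.39, adjusted p = 0.549). Gstm1, at 47.3 CPM in FFPE heart and 51.5 CPM in frozen heart the most abundant GST there, was lower in heart (difference -1.30 ± 0.19, adjusted p = 0.000544).

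Averaged over the 4 organs, 1 of the 44 tested genes was lower in FFPE than in frozen tissue and 0 were higher (limma), against 2.18% and 1.2% of all tested genes. At an unadjusted p under 0.05 there were 7 lower and 0 higher, and the share of all genes at that threshold was not computed. On the recovered reads, limma's voom called 5 lower (Ugt2b38, Gstm5, Gstp1, Gstt2 and Ugt2b5) and 2 higher (Sult1a1 and Ugt1a5). Of all 15819 tested genes, voom called 835 lower and 572 higher. Without the authors' scaling factors 0 were lower and 2 higher, against 73 and 3652 of all genes, while the median of all genes moved to 0.54 log2 units. The 1 gene was Gstp1, the pi-class enzyme known to be more abundant in livers of male mice. It had 173 CPM in FFPE liver and 405 CPM in frozen liver, 7.48 CPM in FFPE kidney and 14.7 CPM in frozen kidney, 8.11 CPM in FFPE heart and 13.6 CPM in frozen heart, and 8.66 CPM in FFPE brain and 19.7 CPM in frozen brain. It was lower in the FFPE library of all 4 organs, by -1.03 ± 0.13 log2 units on average (adjusted p = 0.0129). The call was lost without any 1 brain, kidney or liver library (adjusted p = 0.0612 to 0.110). Gstp1 shares 33.7% of its 50-base stretches with Gstp2, which had 5.99 CPM in FFPE liver and 10.5 CPM in frozen liver. Xist differed between the libraries of heart, kidney and liver as given above. In brain, where Gstp1 was also lower in FFPE tissue, both libraries held Xist and only FFPE brain held Ddx3y reads. The part of these sex-linked differences in the Gstp1 difference was not tested.

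Several SULT genes differed widely between the liver libraries. Sult2a2 had 528 reads in FFPE liver and 0 in frozen liver, which is at least 126-fold higher in FFPE liver when 3 reads are taken as the floor for frozen liver. Sult2a1, which sulfates dehydroepiandrosterone and bile acids, had 308 reads in FFPE liver and 0 in frozen liver, at least 73.7-fold higher. Sult3a1, an amine sulfotransferase, had 244 reads in FFPE liver and 0 in frozen liver, at least 58.4-fold higher. These 3 genes, not tested because they passed 1 CPM in 1 library, are known as female-predominant genes of mouse liver. Xist was present in the library that held them and nearly absent from the other, while Ddx3y was present in both, and the part of this difference was not tested. Sult2a1 and Sult2a2 are hard to tell apart, since 41.3% of the 50-base stretches of Sult2a2 occur in Sult2a1. Sult2a5 (16 reads in FFPE liver and 0 in frozen liver), Sult2a7 (16 reads in FFPE liver and 3 in frozen liver) and Sult2a3 (12 reads in FFPE liver and 0 in frozen liver) leaned the same way at low counts. Their neighbour Sult2a8 had 7350 reads in FFPE liver and 5695 in frozen liver, 506 CPM in FFPE liver and 547 CPM in frozen liver, so the gap was not shared by the whole Sult2a cluster. In the other direction, Gsta1 had 0 reads in FFPE liver and 10 in frozen liver, and 90.5% of its 50-base stretches occur in other genes.

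**Figure D4:**
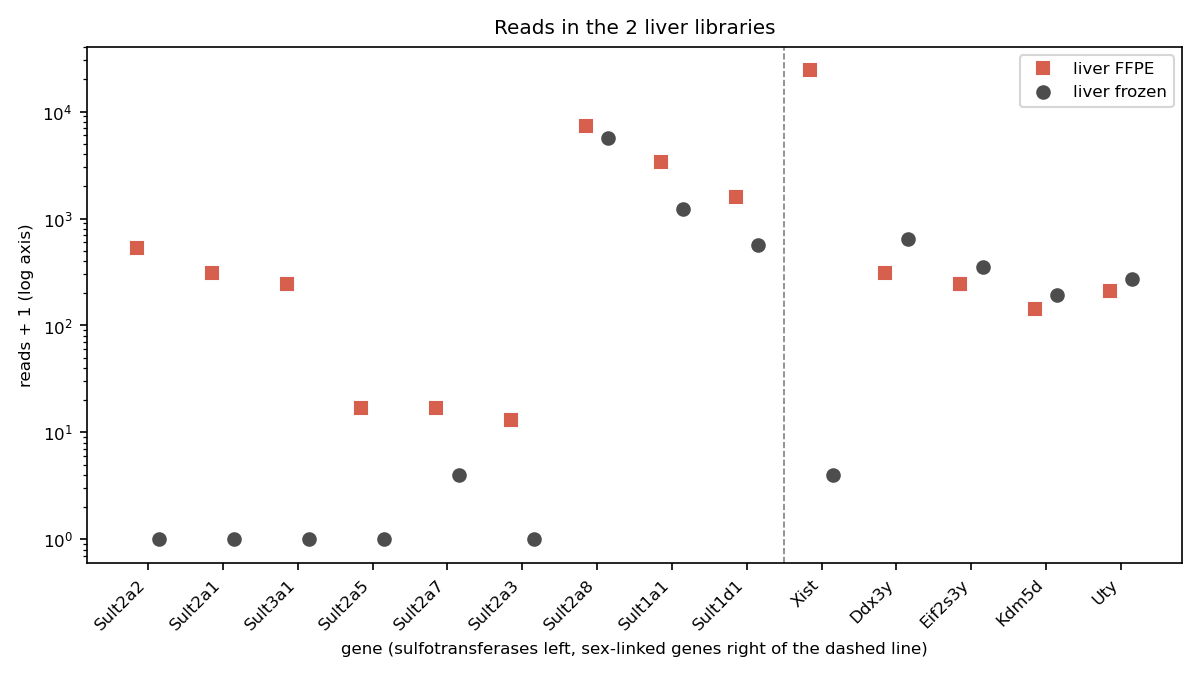
Reads plus 1, on a log axis, of 9 sulfotransferase genes and 5 sex-linked genes in FFPE liver (squares) and frozen liver (circles). Sult2a2, Sult2a1, Sult3a1 and Xist have 244 to 24213 reads in FFPE liver and at most 3 in frozen liver, while Sult2a8, Sult1a1 and the Y-linked genes have reads in both.

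Within each organ, genes with at least 10 reads in 1 of the 2 libraries were set side by side, with no test since each side is 1 library. In liver, 11 of 50 members were over 2-fold higher in FFPE and 2 were over 2-fold lower, against 6.89% and 3.33% of all genes. Of these, 8 were SULTs, of 12 measured (Sult1c2, Sult1d1, Sult2a1, Sult2a2, Sult2a3, Sult2a5, Sult2a7 and Sult3a1), and the 3 UGTs were Ugt1a5, Ugt1a7c and Ugt1a10. In kidney, 6 of 37 members were over 2-fold higher in FFPE and 1 was over 2-fold lower, against 10.4% and 3.75% of all genes, the lower one being Ugt2b38. In heart, 1 of 16 was over 2-fold higher (Sult4a1, 13 reads in FFPE heart and 1 in frozen heart) and 0 were over 2-fold lower, against 9.69% and 4.72% of all genes.

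Brain GSTs were mostly lower in FFPE tissue. Of 15 GSTs with at least 10 reads in 1 brain library, 14 were lower in FFPE brain, with a median of -0.999 log2 units, while 54.0% of all genes were lower there, with a median of -0.05. No brain member was over 2-fold higher in FFPE and 7 of 18 were over 2-fold lower, all of them GSTs, against 6.85% and 6.76% of all genes. Among these, Gstm4 had 0.838 CPM in FFPE brain and 3.53 CPM in frozen brain, Gstm6 had 0.893 CPM in FFPE brain and 3.25 CPM in frozen brain, and Gstm1 had 21.2 CPM in FFPE brain and 46.6 CPM in frozen brain. In heart, 12 of 14 GSTs were lower in FFPE tissue with a median of -0.31, and none of the 14 by more than 2-fold, while 45.6% of all genes were lower there, with a median of 0.07. In kidney 10 of 17 GSTs were lower (median -0.26, against 45.9% of all genes), and in liver 13 of 20 (median -0.13, against 50.1%). Astrocytes are a known source of GST RNA in brain, and the 4 astrocyte markers summed to 301 CPM in FFPE brain and 326 CPM in frozen brain. The same 4 summed to 904 CPM in FFPE liver and 975 CPM in frozen liver, so this sum is not particular to astrocytes. Neuron markers summed to 1400 CPM in FFPE brain and 881 CPM in frozen brain. The part of these cell types in the GST differences was not tested.

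**Figure D5:**
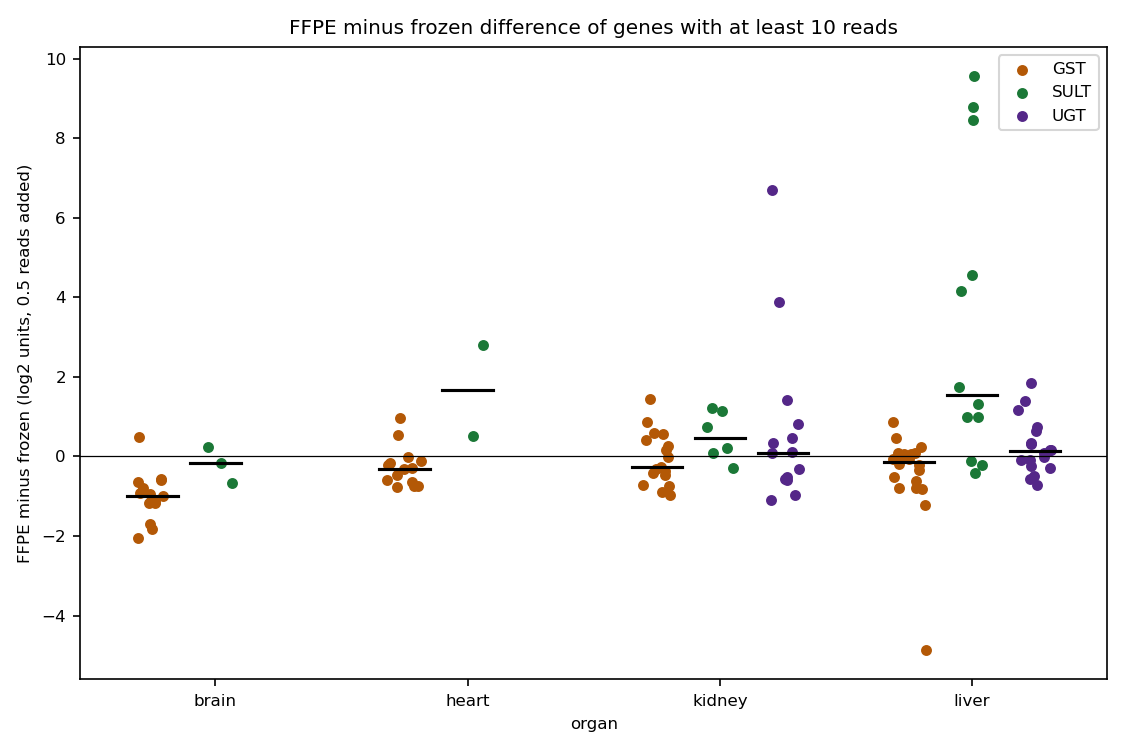
FFPE minus frozen difference in log2 units (y axis) of each gene with at least 10 reads in 1 of the 2 libraries of an organ (x axis), coloured by family, with black bars at family medians. Brain GSTs lie mostly below 0 with a median of -0.999, and the 3 highest points in liver are Sult2a2, Sult2a1 and Sult3a1.

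Genes that supply the donors followed the same organs in part. The lists were drawn up from textbook pathways, and their counts stand against the same shares of all tested genes as above, 27.3% higher and 35.2% lower in liver and 20.3% and 19.9% in kidney. A list gene that passed the filter through 1 organ alone had to be higher there. For UDP-glucuronic acid supply and glucuronide hydrolysis, 5 of 6 genes were higher in liver and 0 lower, with a list median of 2.32 log2 units against -0.13 for all genes. Ugdh, which makes UDP-glucuronic acid, had 105 CPM in FFPE liver and 147 CPM in frozen liver, and 6.98 to 42.4 CPM in the other 6 libraries (3.04 ± 0.13). The list's kidney count was 4 higher and 1 lower. For PAPS supply and sulfate handling, 8 of 12 genes were higher and 1 lower in liver (median 0.88), and 7 higher and 2 lower in kidney (median 0.86 against -0.04 for all genes). Papss2, which makes PAPS, was higher in liver (3.13 ± 0.27) and in kidney (2.47 ± 0.27). Slc13a1, the sulfate carrier of the kidney tubule, was higher in kidney (10.13 ± 1.18), with 77.7 CPM in FFPE kidney and 85.0 CPM in frozen kidney and at most 8 reads elsewhere.

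Of 19 genes of glutathione synthesis and turnover, 13 were higher and 4 lower in liver (median 1.52), and 14 were higher and 2 lower in kidney (median 2.08). Cth and Cbs, which make cysteine from methionine, were higher in liver (6.30 ± 0.18 for Cth and 5.74 ± 0.48 for Cbs). Ggt1, which starts the breakdown of glutathione conjugates at the cell surface, had 0 reads in FFPE liver and 3 in frozen liver, against 4074 in FFPE kidney and 7084 in frozen kidney. Ggt1 was lower in liver (-4.74 ± 0.98) and higher in kidney (10.37 ± 0.98), and Acy3 (6.64 ± 0.43), Dpep1 (5.81 ± 0.43) and Nat8 (5.62 ± 0.45), which act later on such conjugates, were higher in kidney.

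Of the glutathione transferases and related enzymes outside the symbol rule, 1 of 14 tested was higher and 7 lower in liver (median -1.15), and the 1 was Mgst1, a membrane-bound transferase (7.51 ± 0.31), with 959.6 CPM in FFPE liver and 1455 CPM in frozen liver. Gdap1, a mitochondrial relative of the GSTs in neurons, was higher in brain (9.37 ± 0.59), and Mgst3 was higher in heart (2.74 ± 0.20). Of 15 tested genes for methyl, acetyl and amino acid conjugation, 13 were higher and 0 lower in liver (median 5.23), with Gnmt (9.39 ± 0.40) and Baat, which conjugates bile acids with taurine (9.37 ± 0.58), among them. In kidney 8 were higher and 1 lower, led by Acsm2 (12.33 ± 0.57).

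Of 22 regulators, 18 were higher and 0 lower in liver (median 3.07), and 7 higher and 6 lower in kidney (median -0.01). Nr1i3 and Nr1i2, which encode the drug-sensing receptors CAR and PXR, were higher in liver by 10.82 ± 0.58 and 8.19 ± 0.48. Nr1i3 had 105.5 CPM in FFPE liver and 81.5 CPM in frozen liver and at most 1 read in any other library. Of 21 NRF2 target genes other than transferases, 13 were higher and 5 lower in liver (median 1.16), and 14 higher and 3 lower in kidney (median 0.97). Of 10 efflux transporters, 4 were higher and 4 lower in liver (median -0.72). Abcc2, which exports conjugates into bile, was among the higher ones (8.27 ± 0.38), and Abcc5, which was higher in brain (2.02 ± 0.17), among the lower ones (-2.70 ± 0.17).

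In brain, the counts of higher and lower genes were 1 and 5 of 6 for the UDP-glucuronic acid list, 3 and 7 of 12 for the PAPS list, 2 and 15 of 19 for the glutathione list and 0 and 16 of 22 for the regulators. Of all tested genes 34.7% were higher and 31.6% lower in brain. In heart, the counts were 1 and 4, 1 and 8, 2 and 12, and 7 and 12, against 21.5% and 28.7% of all tested genes. The cystine carrier gene Slc7a11 was among the 2 glutathione genes higher in brain (8.23 ± 0.76), and Dpep1 among the 2 higher in heart (4.62 ± 0.43). Between FFPE and frozen tissue 4 genes of all these lists were called, against 1.2% of all tested genes called higher and 2.18% called lower. Papss1 (-0.61 ± 0.13, adjusted p = 0.0481), Ftl1 (-0.79 ± 0.16, adjusted p = 0.0394) and Taldo1 (-0.72 ± 0.13, adjusted p = 0.0315) were lower in FFPE tissue, and Abcc5 was higher (0.87 ± 0.15, adjusted p = 0.0266).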

How the data were processed

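Total RNA was sequenced from FFPE and frozen brain, heart, kidney and liver, 1 library each. Per the labels' protocols RNA was isolated with Trizol, after deparaffinization for FFPE tissue, and sheared with PIXUL. HISAT2, featureCounts, limma and mm10 are named in the submitters' processing notes without settings. No source used here states the annotation, strand setting or read length.

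Values are log2 CPM as the authors deposited them. With 0.5 reads added per count and scaling factors of 0.500 to 1.76, 100% of values gave whole reads within 1e-06. CPM in the text is reads per effective library size. Depth was 10180972 to 20526813 reads, and the floor of 3 reads lay between 0.119 and 0.292 CPM, covering counting error only.

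limma 3.58.1 (R 4.3.3) was fitted to the deposited log2 values with terms for organ and preservation and a mean-variance trend, on 15819 genes above 1 CPM in at least 2 libraries, with Benjamini-Hochberg adjustment over all of them and calls at 0.05. Errors printed after ± are SEs of these fits, n = 2 libraries per organ. The p-values measure only the spread between these libraries, and the number of animals is not stated. Frozen brain held Xist with almost no Y-linked reads and the other frozen libraries the reverse, so the libraries cannot all come from 1 animal. The fit was tested on simulated data. Tables and figures were made with Python 3.11.15, pandas 2.3.3, SciPy 1.17.1 and matplotlib 3.10.9. Alternatives were filters, pseudocount, scaling, variance settings, voom and leaving out each library. Gene positions and exon sharing are from GENCODE M21.

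The members, the lists and the rule for named genes were chosen with earlier results of these data known. The rule took the 8 most abundant members in liver, 8 in kidney, 5 in brain and 5 in heart, members called between FFPE and frozen tissue, the 5 largest liver minus kidney calls each way, members whose highest organ differed between preparations, and up to 4 called genes per list. Other genes named were chosen after their values were seen. Of the 44 tested members, 10 passed the filter only through the liver libraries.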

Additional observations from a re-analysis of the deposited data

Results flagged for a closer look

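For 5 genes the ratio of CPM in FFPE over frozen tissue lay above 1 in 1 organ and below 1 in another, with 95% counting intervals that left out 1 on each side and a gap over 2-fold in at least 1 organ. Each organ has 1 library per preparation, so these differences between organs were not tested. Gsta4 had a ratio of 2.73 in kidney, 0.572 in brain and 0.592 in heart. Gstt3 had 1.82 in liver, 0.43 in brain and 0.749 in kidney, and 13.6% of its exonic bases are shared with another annotated gene. Sult1d1 had 2.01 in liver and 0.813 in kidney. Sult4a1 had 10.1 in heart, from 13 reads in FFPE heart and 1 in frozen heart, and 0.888 in brain. Ugt1a7c had 3.7 in liver, from 67 reads in FFPE liver and 13 in frozen liver, and 0.67 in kidney.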

How the results depend on the processing

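Of the alternative values of named genes, 609 kept direction and side of the threshold, 17 lost the call and 3 reversed, and of the counts of called members 178 stayed within 1.5 times the reported count and 26 did not. Without the authors' scaling factors the median of all genes moved to -0.46 log2 units for liver, 0.20 for kidney, 0.98 for brain, -1.03 for heart, -0.51 for liver minus kidney and 0.54 for FFPE minus frozen. There 2 members were higher and 0 lower in FFPE, against 3652 and 73 of all 15819 tested genes. In heart 1 member was higher, against 1649 of all genes. Gsta4 in heart was then -0.54, and Gstp1 in FFPE tissue was -0.56 (limma, adjusted p = 0.0593). With log2(CPM + 5), 12 members were higher and 23 lower in kidney, against 2940 and 4110 of all genes. In that setting 10 were lower in liver than kidney, against 3021 of all genes, and 4 were lower in liver, against 5936. With voom, 2 were higher and 5 lower in FFPE, against 572 and 835 of all genes. It placed 10 lower in liver than kidney, against 3567 of all genes. With no mean-variance trend, 0 were lower in FFPE (Gstp1 adjusted p = 0.16), as were 0 of all genes. In that setting 1 was lower in liver, against 5260 of all genes.

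Leaving out each library in turn gave 38 to 42 members higher and 1 to 2 lower in liver, 12 to 20 higher and 6 to 13 lower in kidney, 1 to 2 higher and 35 to 40 lower in brain, 1 to 3 higher and 26 to 33 lower in heart, 26 to 30 higher and 3 to 6 lower in liver than kidney, and 0 higher and 0 to 1 lower in FFPE. The low ends came without FFPE kidney (12 higher in kidney), frozen kidney (6 lower in kidney, 3 lower in liver than kidney), frozen heart (1 higher in heart), frozen brain (1 higher in brain), and frozen brain, FFPE heart or FFPE liver (1 lower in liver). Gsta4 in heart ranged between -0.18 (without frozen heart) and 0.77 and was -0.03 without frozen kidney. The cause was not tested. The organ term already pairs FFPE with frozen tissue within the 4 organs, and the labels carry no replicate numbers for another block. At these depths differences of genes with fewer than 10 reads are not resolved.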
